A study of Mus musculus with 16 samples.

Results

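Common dendritic cell progenitors (CDPs) that carry little Ikaros were compared with WT CDPs while γ-secretase was blocked. The comparison rests on 4 of the 16 arrays of the series, 2 from IkL/L CDPs with GSI and 2 from WT CDPs with GSI. These arrays were chosen by their labels, and 19938 genes were measured on each. The groups were IkL/L and WT CDPs with GSI, IkL/L and WT CDPs with vehicle, and IkL/L and WT MDPs (monocyte dendritic progenitors) with GSI and with vehicle, with 2 arrays in each. IkL/L cells are homozygous for a hypomorphic allele of Ikaros (*Ikzf1*), so they keep some of the protein. The γ-secretase inhibitor was Compound E at 5 µM, and the vehicle was DMSO. All progenitors were sorted as CD45.2+ cells from mouse bone marrow, grown for 24 h with Flt3L beside supporting CD45.1+ bone marrow cells, and sorted again as CD45.2+ before RNA was extracted. CDP is thus the name of the cells put into culture, and the RNA is from all of their CD45.2+ progeny. The labels give no age or sex of the animals.

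Ikaros is a zinc finger DNA-binding protein that represses or activates genes during the development of lymphoid and dendritic cells. CDPs give rise to conventional DCs (cDCs) and to plasmacytoid DCs (pDCs), and Flt3L drives this step. γ-secretase is a membrane protease that cuts Notch receptors and many other type I membrane proteins, so an inhibitor prevents the Notch intracellular domain from reaching the nucleus. The comparison asks which genes differ between IkL/L and WT cells when this cut cannot be made.

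The values are log2 signals, on which a difference of 1 is a doubling. Replicate arrays correlated at r = 0.992 across genes for IkL/L CDPs with GSI and at r = 0.983 for WT CDPs with GSI, and the range over the 8 groups was 0.983 to 0.996. The pair from WT CDPs with GSI stood farthest apart, with 562 genes over 1 log2 unit apart, against 249 in the IkL/L pair. Precision is limited by having 2 arrays in a group, and the legend of the study gives 2 mice per condition. The Y-linked gene *Eif2s3y* had 6.05 and 6.71 in IkL/L CDPs and 6.74 and 3.06 in WT CDPs, and *Xist* had 8.49 and 7.42 in IkL/L CDPs and 9.01 and 8.91 in WT CDPs. Whether the sex of the animals had a part in any result was not tested.

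*Ikzf1* itself had 8.58 and 8.59 in IkL/L CDPs with GSI, against 8.90 and 9.15 in WT CDPs with GSI. The log2 difference was -0.44 with a standard error of 0.14 (adjusted p = 0.185 from limma, as all adjusted p values here). The groups did not overlap, but the difference did not pass the threshold of 0.05. Where the probes lie relative to the altered part of the allele is not known here, so this value does not check the genotype. Of the 5 Ikaros family genes *Ikzf1* to *Ikzf5*, 0 passed the test (2 at an unadjusted p under 0.05).

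The receptors used to sort CDPs were measured at differing levels, and *Kit* in array 1 of WT CDPs lay close to that array's median of 4.58. *Csf1r*, the M-CSF receptor, had 10.80 and 10.39 in IkL/L CDPs and 10.52 and 9.99 in WT CDPs. *Flt3*, the Flt3L receptor, had 8.57 and 9.40 in IkL/L CDPs and 7.71 and 9.13 in WT CDPs, and *Kit*, the stem cell factor receptor, 6.69 and 6.87 in IkL/L CDPs and 4.85 and 5.92 in WT CDPs. All 3 missed the threshold, and *Csf1r* and *Flt3* overlapped between the groups. Among genes of mature lineages, *Cd3e* stayed between 4.17 and 4.89 and *Ncr1* between 3.30 and 3.51 over all 16 arrays, whereas the neutrophil marker *Ly6g* had 7.07 and 4.75 in IkL/L CDPs and 3.31 and 3.72 in WT CDPs (adjusted p = 0.152). In such bulk samples, more cells of a type and more RNA per cell cannot be told apart.

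With GSI, 270 genes rose in IkL/L CDPs (1.35% of the 19938 genes tested) and 158 fell (0.792%), 428 in all (2.15%). An unadjusted p under 0.05 was found for 2090 genes (10.5%). The rises were larger than the falls. Of the 270 raised genes, 171 differed by over 2-fold, 68 by over 4-fold and 22 by over 8-fold. Of the 158 lowered genes, 88 differed by over 2-fold, 2 by over 4-fold and 0 by over 8-fold. By fold change alone, 759 genes were over 1.5-fold higher (3.81%) and 451 over 1.5-fold lower (2.26%). These calls rest on the spread of all 16 arrays. When limma was fitted to the 4 compared arrays only, 0 genes passed, with 1866 at an unadjusted p under 0.05. Without array 1 or 2 of WT CDPs, 130 and 170 genes rose and 50 and 70 fell, and without array 1 or 2 of IkL/L CDPs, 161 and 151 rose and 33 and 51 fell. Of the called genes, 89 raised and 24 lowered ones were called without each of these arrays in turn.

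**Figure D1:**
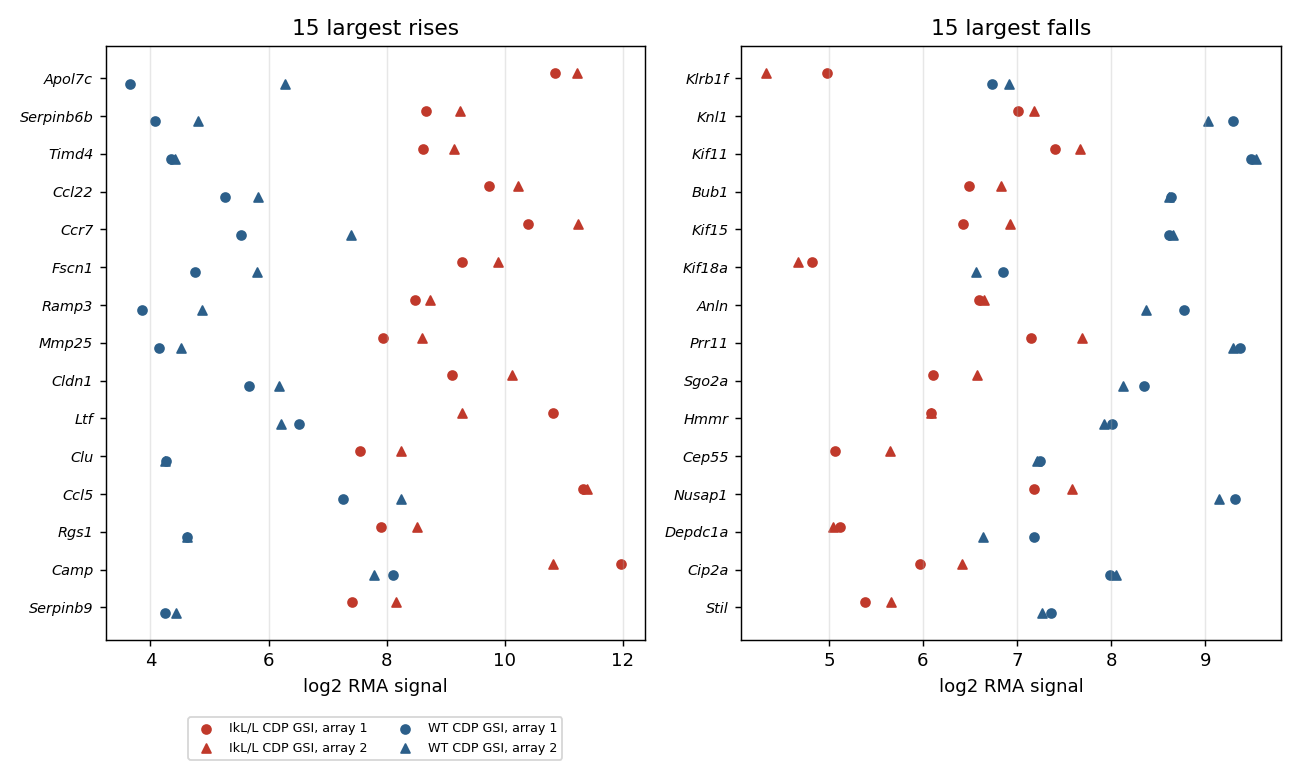
Log2 RMA signal (x axis) of the 15 genes with the largest rise (left) and the 15 with the largest fall (right) in each of the 4 arrays, IkL/L CDPs with GSI in red above WT CDPs with GSI in blue, circles for array 1 and triangles for array 2. No IkL/L array overlaps a WT array for these genes, which was part of how they were chosen, and *Apol7c* shows the widest gap between the WT arrays, at 3.66 and 6.27.

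Of the 15 genes raised most, 7 were on a list of genes that DCs switch on when they mature and leave for lymph nodes. *Ccl22*, a chemokine of mature DCs that attracts regulatory T cells, had 9.74 and 10.22 in IkL/L CDPs with GSI, against 5.26 and 5.82 in WT CDPs with GSI. Its mean was 9.98 ± 0.33 in IkL/L CDPs and 5.54 ± 0.39 in WT CDPs (SD, n = 2 each), a 21.7-fold rise (log2 difference 4.44, standard error 0.30, adjusted p = 8.83e-05). *Ccr7*, the receptor that guides mature DCs into lymph vessels, had 10.40 and 11.24 in IkL/L CDPs and 5.53 and 7.39 in WT CDPs. It rose 20.6-fold (adjusted p = 0.00227, but 0.0571 in a fit of the 8 CDP arrays), with WT arrays that lay farther apart than the IkL/L arrays. *Fscn1*, which bundles actin in the dendrites of mature DCs, had 9.27 and 9.88 in IkL/L CDPs and 4.76 and 5.80 in WT CDPs, a 19.6-fold rise (adjusted p = 0.000117). In all 3 genes both IkL/L arrays were far above both WT arrays.

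Of 33 measured mature DC genes, 25 rose (against 1.35% of all genes) and 0 fell. All 33 had a higher mean in IkL/L CDPs, 32 of the 33 without overlap between the arrays. The median log2 difference was 1.91 (all genes -0.01, with 45.3% higher in mean and 16.7% higher without overlap). The costimulatory and checkpoint genes among them included *Cd83*, a maturation marker (8.93 and 9.51 in IkL/L CDPs, 5.88 and 6.42 in WT CDPs, 8.39-fold), and *Cd200*, a ligand that dampens myeloid cells (7.40 and 7.88 in IkL/L CDPs, 4.50 and 5.03 in WT CDPs, 7.36-fold). *Pdcd1lg2*, which encodes the PD-1 ligand PD-L2, had 5.40 and 6.06 in IkL/L CDPs and 3.86 and 3.77 in WT CDPs (3.76-fold, adjusted p = 0.000989). *Cd40* and *Cd80*, which engage T cells, rose 2.97-fold and 1.96-fold. The protease inhibitor genes *Serpinb6b* and *Serpinb9*, of which the second blocks granzyme B, rose 22.9-fold and 10.8-fold, and *Socs2*, a brake on cytokine receptors, 9.53-fold. The nonclassical MHC gene *H2-M2* rose 10.5-fold. The 8 mature DC genes that did not pass were *Ccl17*, *Cd86*, *Cd274*, *Birc3*, *Samsn1*, *Icosl*, *Il12b* and *Ebi3*, with log2 differences from 0.19 to 1.54. The count of 25 was 18 without array 1 of WT CDPs or array 2 of IkL/L CDPs and 20 without either other array, and 16 genes were called each time. The calls for *Cd40* (adjusted p = 0.0124) and *Cd80* (0.0344) were lost without any 1 of the 4 arrays, with adjusted p from 0.0626 to 0.0818 for *Cd40*.

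*Apol7c*, an apolipoprotein L gene, had the largest difference of all, with 10.85 and 11.22 in IkL/L CDPs and 3.66 and 6.27 in WT CDPs. It rose 67.0-fold (log2 difference 6.07, standard error 0.96, adjusted p = 0.0103). Leaving out array 1 of WT CDPs (adjusted p = 0.0658), or array 1 (0.0569) or 2 (0.0702) of IkL/L CDPs, ended this call, while the log2 difference stayed between 4.76 and 7.37. Several further genes of the top 15 are less tied to DC maturation by name. *Timd4*, a phosphatidylserine receptor for the uptake of dying cells, had 8.61 and 9.14 in IkL/L CDPs and 4.35 and 4.41 in WT CDPs, a 22.5-fold rise. *Ramp3*, a partner of the calcitonin receptor-like receptor, had 8.48 and 8.74 in IkL/L CDPs and 3.85 and 4.88 in WT CDPs, a 19.0-fold rise (adjusted p = 5.21e-05). *Mmp25*, a membrane-anchored matrix metalloproteinase, had 7.93 and 8.60 in IkL/L CDPs and 4.15 and 4.52 in WT CDPs, a 15.2-fold rise (adjusted p = 4.44e-05). All 3 were low in both WT arrays and high in both IkL/L arrays. *Cldn1*, a tight junction protein, *Clu*, the chaperone clusterin, and *Rgs1*, which shortens chemokine receptor signaling, rose 13-fold, 12.5-fold and 12.1-fold. Each of these 6 genes stayed called without any 1 of the 4 arrays.

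Motifs were counted in promoter windows from 250 bases before to 50 bases after the RefSeq start of each gene (GRCm38.p6), on both strands. The Ikaros core motif TGGGAA was found in 28.8% of 285 windows of 215 raised genes, 18.7% of 150 windows of 131 lowered genes and 24.1% of all 19116 windows. The κB consensus, to which NF-κB dimers bind, was found in 15.4%, 9.33% and 9.54% of the same windows. By list it was found in 20.0% of the 25 windows of mature DC genes and in 15.4% of the 26 windows of mitosis genes, which fell. In the windows of these lists the share with TGGGAA was 24.0% and 23.1%, against 24.1% of all windows. The windows of *Mmp25* and *Ramp3* are examples with κB matches close to the start. They are printed from 150 bases before the start to 30 bases from it, 5′ to 3′ along the gene, with κB matches in capitals. The *Mmp25* stretch is chr17:23645240-23645419 on the minus strand and that of *Ramp3* chr11:6658383-6658562 on the plus strand.
Mmp25: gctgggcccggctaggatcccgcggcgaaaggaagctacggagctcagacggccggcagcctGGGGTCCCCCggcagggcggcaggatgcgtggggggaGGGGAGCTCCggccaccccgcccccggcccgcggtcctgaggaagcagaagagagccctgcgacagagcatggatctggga
Ramp3: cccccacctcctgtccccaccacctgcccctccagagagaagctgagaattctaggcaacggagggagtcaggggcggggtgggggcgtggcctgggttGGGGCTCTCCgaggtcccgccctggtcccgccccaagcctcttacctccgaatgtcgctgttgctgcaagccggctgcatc
The *Mmp25* stretch holds 2 matches and the *Ramp3* stretch 1. A match of letters is a description and says nothing of binding in these cells.

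Genes of the NF-κB pathway, which DCs use during maturation, lay above 0 as a list. All 26 measured genes had a higher mean in IkL/L CDPs with GSI (against 45.3% of all genes). The test called 5 raised (against 1.35%), and the median log2 difference was 0.57. Of these 5, *Traf1*, *Relb* and *Cd40* are also on the mature DC list counted above. *Traf1*, an adaptor of TNF receptors and itself an NF-κB target, had 6.56 and 7.10 in IkL/L CDPs and 4.24 and 4.05 in WT CDPs, a 6.43-fold rise (adjusted p = 0.000263). *Birc2*, a ubiquitin ligase that restrains the noncanonical branch, had 8.45 and 8.79 in IkL/L CDPs and 6.66 and 6.84 in WT CDPs, a 3.66-fold rise (adjusted p = 0.000865). *Relb*, the DNA-binding subunit of the noncanonical branch, had 6.77 and 7.10 in IkL/L CDPs and 5.47 and 5.41 in WT CDPs, a 2.82-fold rise (adjusted p = 0.00526). The kinase gene *Map3k14*, which starts that branch, rose 2.24-fold (adjusted p = 0.00718), and *Cd40*, a receptor that feeds into it, is given above. *Relb* lost its call without array 2 of IkL/L CDPs (adjusted p = 0.0506) and *Map3k14* without array 2 of WT CDPs (0.0518) or array 2 of IkL/L CDPs (0.0643).

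The study names 7 TGFβ-related genes with Ikaros bound nearby, and all 7 had a higher mean in IkL/L CDPs with GSI. They are the study's own examples, taken from Ikaros binding in other cell types, and whether these arrays had a part in the choice is not stated, so the direction of the list is not given as independent evidence. *Relb* and *Irf1* passed the test. *Irf1*, a transcription factor of the interferon response, had 7.90 and 7.86 in IkL/L CDPs and 6.49 and 6.88 in WT CDPs, a 2.30-fold rise (adjusted p = 0.00229). In a fit of the 8 CDP arrays neither *Irf1* (adjusted p = 0.0526) nor *Relb* (0.0841) was called. The NF-κB genes *Nfkb2* (7.73 and 8.11 in IkL/L CDPs, 6.74 and 7.03 in WT CDPs), *Nfkbie* (7.04 and 6.89 in IkL/L CDPs, 5.90 and 6.13 in WT CDPs) and *Rel* (9.67 and 9.99 in IkL/L CDPs, 9.31 and 8.90 in WT CDPs) did not overlap but did not pass (adjusted p = 0.0776, 0.0823 and 0.192). The receptor kinase gene *Axl* and the transcription factor gene *Irf4* overlapped between the groups, with log2 differences of 0.67 and 0.24 (adjusted p = 0.766 and 0.994).

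Among 30 TGFβ receptor, SMAD and associated genes, 3 rose (against 1.35% of all genes) and 0 fell. The median log2 difference was -0.01. *Eng*, which encodes the auxiliary TGFβ receptor endoglin, had 7.42 and 7.51 in IkL/L CDPs with GSI and 5.25 and 6.08 in WT CDPs with GSI. It rose 3.47-fold (log2 difference 1.79, standard error 0.26, adjusted p = 0.00655). Both IkL/L arrays were above both WT arrays, and the WT arrays lay farther apart. The call was lost without array 2 of IkL/L CDPs (adjusted p = 0.0509) and in a fit of the 8 CDP arrays (0.0699). *Itgb8*, an integrin chain that releases active TGFβ, had 5.10 and 5.40 in IkL/L CDPs and 3.96 in both arrays of WT CDPs, a 2.45-fold rise (adjusted p = 0.00086). *Smurf1*, a ubiquitin ligase for SMADs, rose 2.01-fold (adjusted p = 0.039), a call that ended whichever of the 4 arrays was left out (adjusted p 0.092 to 0.265). The receptor-regulated SMAD genes *Smad2*, *Smad3* and *Smad5* had log2 differences of -0.11, -0.21 and -0.18 and did not pass.

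Genes of mitosis were lower in IkL/L CDPs with GSI. All 29 measured genes had a lower mean with no overlap between the arrays (54.7% of all genes had a lower mean and 20.6% a lower one without overlap). Of these, 20 fell at an adjusted p under 0.05 (against 0.792% of all genes) and 28 had an unadjusted p under 0.05. The median log2 difference was -1.46, with a range of -2.07 to -1.13. *Ccna2*, cyclin A2, had 8.56 and 9.15 in IkL/L CDPs and 10.63 and 10.53 in WT CDPs. Its mean was 8.86 ± 0.42 in IkL/L CDPs and 10.58 ± 0.07 in WT CDPs (SD, n = 2 each), 3.31-fold lower (adjusted p = 0.000956). *Ccnb2*, cyclin B2, had 8.32 and 8.50 in IkL/L CDPs and 9.96 and 9.67 in WT CDPs, 2.65-fold lower (adjusted p = 0.00336). Both cyclins stood apart between the genotypes by more than 1 log2 unit in every array.

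The lowered mitosis genes covered several steps of cell division. In the spindle checkpoint, which holds cells until chromosomes are attached, *Bub1* had 6.49 and 6.83 in IkL/L CDPs and 8.64 and 8.62 in WT CDPs (3.92-fold lower, adjusted p = 0.00172). *Bub1b* had 7.31 and 7.45 in IkL/L CDPs and 8.82 and 8.80 in WT CDPs (2.69-fold lower), and *Mad2l1* had 8.32 and 8.57 in IkL/L CDPs and 9.66 and 9.78 in WT CDPs (2.42-fold lower). Among motor proteins, *Kif18a*, which dampens chromosome movement and is not on the list, had 4.82 and 4.67 in IkL/L CDPs and 6.85 and 6.56 in WT CDPs (3.88-fold lower, adjusted p = 0.000117). *Kif11*, which separates the spindle poles, and *Kif20a*, a motor of cytokinesis, were 3.95-fold and 2.60-fold lower. The kinase genes *Plk1* and *Aurka*, which drive entry into mitosis, were 3.11-fold and 2.74-fold lower, and *Cdc20* and *Ube2c*, which direct the destruction of cyclins, 2.67-fold and 2.69-fold. The outer kinetochore genes *Knl1* and *Nuf2*, outside the list, were 4.20-fold and 3.27-fold lower.

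The largest fall among the called genes was that of *Klrb1f*, a lectin-like receptor gene known from natural killer cells, with 4.98 and 4.33 in IkL/L CDPs and 6.73 and 6.91 in WT CDPs (4.48-fold lower, adjusted p = 0.0396). Each of the other 14 genes with the largest falls has a known part in cell division or growth, such as *Prr11* (7.15 and 7.69 in IkL/L CDPs, 9.37 and 9.30 in WT CDPs), *Cip2a*, an inhibitor of the phosphatase PP2A (5.97 and 6.42 in IkL/L CDPs, 7.99 and 8.05 in WT CDPs), and *Stil*, a centriole assembly factor (5.38 and 5.66 in IkL/L CDPs, 7.36 and 7.26 in WT CDPs). The MuvB subunit genes *Lin9* and *Lin54*, whose complex binds cell cycle promoters, fell as well. *Lin9* had 6.02 and 6.06 in IkL/L CDPs and 7.17 and 6.93 in WT CDPs (log2 difference -1.01, adjusted p = 0.000937), and *Lin54* had 6.81 and 6.69 in IkL/L CDPs and 7.86 and 7.49 in WT CDPs (-0.92, adjusted p = 0.0028). The calls of the 20 mitosis genes moved with single arrays. The count was 9 with either array of WT CDPs left out, and for IkL/L CDPs it was 7 without array 1 but 12 without array 2. The 7 genes called each time were *Ccna2*, *Ccnb2*, *Bub1*, *Bub1b*, *Kif20a*, *Cdca3* and *Mad2l1*. The calls for *Klrb1f*, *Knl1*, *Kif11* and *Aurka* were lost without any 1 of the 4 arrays, with adjusted p from 0.101 to 0.263 for *Klrb1f* and from 0.0661 to 0.117 for *Kif11*, while the median difference of the list stayed between -1.59 and -1.34.

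The promoter windows of the lowered genes differed from those of all genes in 2 motifs, which were added after the values were seen. TTTGAA, the core of the cell cycle homology region that MuvB complexes recognize, was found in 43.3% of 150 windows of lowered genes, 17.5% of 285 windows of raised genes and 14.8% of all 19116 windows. CCAAT, the motif of NF-Y, was found in 56.7%, 31.6% and 37.4% of these windows. In the 26 windows of the mitosis list, the shares were 76.9% for TTTGAA and 84.6% for CCAAT. The stretches of *Ccnb2*, *Prr11* and *Hmmr* show the arrangement, with the motifs on either strand in capitals, from 150 bases before the start to 30 bases from it. They are chr9:70421525-70421704 for *Ccnb2*, chr11:87108685-87108864 for *Prr11* and chr11:40733408-40733587 for *Hmmr*, all on the minus strand of GRCm38.p6.
Ccnb2: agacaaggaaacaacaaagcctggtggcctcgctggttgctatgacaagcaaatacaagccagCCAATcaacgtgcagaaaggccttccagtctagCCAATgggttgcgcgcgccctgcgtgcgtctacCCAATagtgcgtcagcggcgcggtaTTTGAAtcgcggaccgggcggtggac
Prr11: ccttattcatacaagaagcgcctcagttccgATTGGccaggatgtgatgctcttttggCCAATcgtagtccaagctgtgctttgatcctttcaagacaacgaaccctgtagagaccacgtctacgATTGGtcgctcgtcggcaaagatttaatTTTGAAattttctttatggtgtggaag
Hmmr: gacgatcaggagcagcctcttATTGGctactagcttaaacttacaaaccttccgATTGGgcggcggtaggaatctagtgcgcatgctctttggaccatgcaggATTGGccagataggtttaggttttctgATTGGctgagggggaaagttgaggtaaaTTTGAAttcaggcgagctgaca
Each stretch holds 1 TTTGAA near the start, with 3 CCAAT matches before it in *Ccnb2* and *Prr11* and 4 in *Hmmr*, where ATTGG is CCAAT on the other strand. *Hmmr*, a spindle-associated hyaluronan receptor, had 6.08 and 6.09 in IkL/L CDPs and 8.01 and 7.92 in WT CDPs (3.67-fold lower, adjusted p = 0.016), a call lost without any 1 of the 4 arrays (adjusted p from 0.07 to 0.1).

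Genes of DNA replication, which act before mitosis, differed less. Of 29 measured genes, 0 passed the test (12 had an unadjusted p under 0.05), and 28 had a lower mean in IkL/L CDPs with GSI. Over all genes, 54.7% had a lower mean. In this list 16 genes were over 1.5-fold lower (against 2.26% of all genes), and the median log2 difference was -0.69. *Pola1*, the catalytic subunit of the polymerase that starts new strands, had 6.73 and 6.85 in IkL/L CDPs and 7.62 and 8.05 in WT CDPs (adjusted p = 0.0537). It passed with the dim genes removed (adjusted p = 0.0344), with a trended and robust prior (0.0404), after quantile normalization (0.0286) and with a replicate block (0.014), under which the clamp loader gene *Rfc4* passed as well (0.0222, against 0.0957). *Rrm2*, a subunit of ribonucleotide reductase, had 7.82 and 8.15 in IkL/L CDPs and 8.87 and 9.45 in WT CDPs (adjusted p = 0.174). All 29 replication genes were lower in array 1 than in array 2 of WT CDPs, with a median difference of -0.71 between these arrays. For WT CDPs, leaving out array 1 gave a list median of -1.06 and leaving out array 2 one of -0.35.

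**Figure D2:**
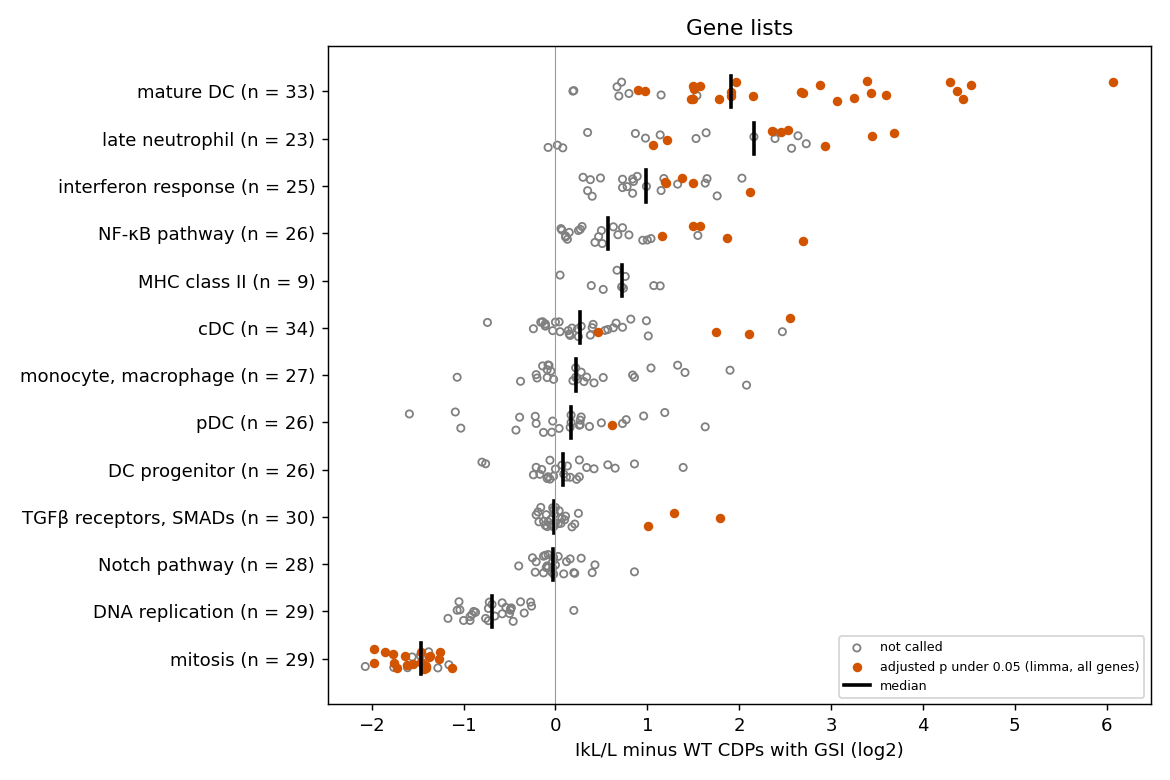
Log2 difference, IkL/L minus WT CDPs with GSI (x axis), of each gene in 13 lists (y axis, n = measured genes), with filled points for genes at an adjusted p under 0.05 and black bars at the medians. The mature DC genes lie to the right with a median of 1.91, the mitosis genes to the left with a median of -1.46, and the Notch pathway genes around -0.03.

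The identity genes of DC subsets moved less than the maturation genes. Of 34 cDC genes, 4 rose (against 1.35% of all genes) and 0 fell. A higher mean was found for 25 (against 45.3%) and an unadjusted p under 0.05 for 12 (against 10.5%). Of the 34, 10 were over 1.5-fold higher (against 3.81%) and 1 over 1.5-fold lower (against 2.26%). The median log2 difference was 0.26 (0.42 without array 1 of IkL/L CDPs). *Ly75*, the endocytic receptor DEC-205, had 7.25 and 7.27 in IkL/L CDPs with GSI and 4.81 and 4.61 in WT CDPs with GSI, a 5.86-fold rise (adjusted p = 0.000156) that held without each of the 4 arrays. The lectin gene *Clec4a4* rose 3.37-fold (adjusted p = 0.015), the aminopeptidase gene *Anpep* 4.30-fold (0.0429) and the protease inhibitor gene *Cst3* 1.37-fold (0.024). *Clec4a4* was not called without array 1 of WT CDPs (adjusted p = 0.0628) or array 1 of IkL/L CDPs (0.12), *Anpep* without any 1 of the 4 arrays (0.094 to 0.232), and *Cst3* without either WT array or array 2 of IkL/L CDPs (0.0588 to 0.184). The 9 MHC class II genes were all higher in mean in IkL/L CDPs (against 45.3% of all genes), with a median of 0.72. Of them 0 passed (4 at an unadjusted p under 0.05). For WT CDPs, leaving out array 1 gave a median of 0.31 and leaving out array 2 one of 1.14. *H2-Eb1*, an MHC class II chain, had 11.50 and 11.71 in IkL/L CDPs and 9.91 and 11.03 in WT CDPs (adjusted p = 0.313).

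The 26 pDC genes went both ways, from -1.59 to 1.63. Of them 6 were over 1.5-fold higher (against 3.81% of all genes) and 3 over 1.5-fold lower (against 2.26%). An unadjusted p under 0.05 was found for 10 (against 10.5%). Of the 26 genes 1 rose at an adjusted p under 0.05 (against 1.35% of all genes). The median was 0.17, and -0.07 and 0.28 with array 1 or 2 of WT CDPs left out. With array 2 of IkL/L CDPs left out it was 0.02. The WT CDP arrays differed for this list, with 4 of the 26 genes higher in array 1 than in array 2 and a median difference of -0.44. The raised gene was the B cell and pDC adaptor gene *Blnk*, with 4.83 and 4.87 in IkL/L CDPs with GSI and 3.99 and 4.49 in WT CDPs with GSI (1.53-fold, adjusted p = 0.0487). It was called only without array 2 of WT CDPs, and its adjusted p was 0.177 to 0.233 when any other of the 4 arrays was left out. *Tcf4*, which encodes the pDC regulator E2-2, had 8.30 and 8.81 in IkL/L CDPs and 7.94 and 8.84 in WT CDPs (log2 difference 0.17, adjusted p = 0.986). Its antagonist *Id2*, which favors cDCs, had 9.34 and 9.58 in IkL/L CDPs and 9.42 and 9.71 in WT CDPs (-0.11, adjusted p = 0.997). The groups overlapped for both. Of 26 DC progenitor genes 0 passed (2 at an unadjusted p under 0.05), with a median of 0.08, and *Cd34*, a stem and progenitor marker, had 8.35 and 8.75 in IkL/L CDPs and 8.90 and 9.80 in WT CDPs (adjusted p = 0.438).

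Genes of late neutrophils were also higher in IkL/L CDPs with GSI. Of 23 measured genes, 22 had a higher mean (against 45.3% of all genes), 8 rose (against 1.35%) and 0 fell. The median log2 difference was 2.16. *Ltf*, the granule protein lactoferrin, had 10.82 and 9.28 in IkL/L CDPs and 6.52 and 6.21 in WT CDPs, a 12.9-fold rise (adjusted p = 0.00631). *Camp*, an antimicrobial peptide, had 11.96 and 10.82 in IkL/L CDPs and 8.10 and 7.78 in WT CDPs, a 10.9-fold rise (adjusted p = 0.00172). *Ngp* and *Pglyrp1*, further granule proteins, rose 5.77-fold and 7.61-fold, and the chemokine receptor gene *Cxcr2* 5.14-fold. The mean level of the list was 9.46 and 8.32 in IkL/L CDPs and 7.44 and 6.76 in WT CDPs, and 22 of the 23 genes were higher in array 1 than in array 2 of IkL/L CDPs, by a median of 1.18. *Lcn2*, *Mmp9* and *Ly6g*, also of this list, did not pass (adjusted p = 0.0548, 0.0657 and 0.152). The count of 8 was 2 without array 2 of WT CDPs or array 1 of IkL/L CDPs, and 10 without array 2 of IkL/L CDPs. *Ltf* and *Camp* were called each time, while *Ngp*, *Pglyrp1* and *Cxcr2* were not (adjusted p up to 0.171, 0.221 and 0.28).

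Markers of other cell types moved beside these genes to differing degrees. Of 10 primary granule genes of early myeloid cells only *Serpinb1a* rose (5.00-fold, adjusted p = 0.0304), and the list's median was -0.04 (with array 1 or 2 of WT CDPs left out 0.51 and -0.35, with array 2 of IkL/L CDPs left out 0.26). *Mpo*, the myeloperoxidase gene, had 6.60 and 6.56 in IkL/L CDPs and 8.17 and 7.28 in WT CDPs (adjusted p = 0.858). Of 18 mast cell, basophil and eosinophil genes 17 had a higher mean in IkL/L CDPs (against 45.3% of all genes). In this list 7 genes were over 1.5-fold higher (against 3.81%) and 7 had an unadjusted p under 0.05 (against 10.5%). The median was 0.41 (with array 1 or 2 of IkL/L CDPs left out 0.18 and 0.71). The 1 that rose, *Mcpt8*, a basophil protease, had 9.28 and 7.90 in IkL/L CDPs and 5.46 and 5.04 in WT CDPs, a 10.1-fold rise (adjusted p = 0.0371). Leaving out any 1 of the 4 arrays ended the calls of *Serpinb1a* (adjusted p 0.0755 to 0.212) and *Mcpt8* (0.0588 to 0.274). Of 27 monocyte and macrophage genes, 14 B cell genes and 18 T and NK cell genes, 0 passed (4, 2 and 1 at an unadjusted p under 0.05), with medians of 0.22, -0.10 and 0.07. With array 1 or 2 left out, the monocyte median was -0.02 and 0.52 for IkL/L CDPs, and 0.61 and -0.06 for WT CDPs. Of 13 erythroid and megakaryocyte genes the platelet chemokine gene *Ppbp* rose 2.32-fold (adjusted p = 0.0396, and 0.0903 to 0.27 with 1 of the 4 arrays left out). The single calls in the primary granule, mast cell and erythroid lists stand beside 1.35% of all genes raised. The part of other cell types in the raised genes was not tested.

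Interferon-stimulated genes were higher as a list, but unevenly between the IkL/L arrays. All 25 had a higher mean in IkL/L CDPs with GSI (against 45.3% of all genes), 5 rose (against 1.35%), and the median was 0.99. *Oasl2*, an antiviral protein of the OAS family, had 8.98 and 7.87 in IkL/L CDPs and 6.11 and 6.51 in WT CDPs, a 4.34-fold rise (adjusted p = 0.00659). *Ifit3*, which blocks viral RNA, had 8.20 and 5.64 in IkL/L CDPs and 4.80 and 4.98 in WT CDPs and did not pass (adjusted p = 0.216). All 25 genes were higher in array 1 than in array 2 of IkL/L CDPs, by a median of 0.98, and the mean level of the list was 7.49 and 6.49 in IkL/L CDPs and 5.87 and 5.97 in WT CDPs. The other called genes were *Oas1a*, *Ddx58*, *Xaf1* and *Irf1*. The count of 5 was 1 without array 1 of WT CDPs, 2 without array 2 of WT CDPs or array 1 of IkL/L CDPs, and 9 without array 2 of IkL/L CDPs, and *Irf1* alone was called each time. The list's median was 0.54 without array 1 of IkL/L CDPs and 1.48 without array 2. *Oasl2* lost its call without array 1 of WT CDPs (adjusted p = 0.0591).

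Of 33 chemokine and chemokine receptor genes, 6 rose (against 1.35% of all genes) and 0 fell. Among the 6 were *Ccl22*, *Ccr7* and *Cxcr2* of the lists above. *Ccl5*, which attracts T cells, had 11.32 and 11.39 in IkL/L CDPs with GSI and 7.26 and 8.25 in WT CDPs with GSI, a 12.1-fold rise (adjusted p = 0.000899). *Cxcl3*, which attracts neutrophils, had 6.08 and 6.25 in IkL/L CDPs and 4.63 and 4.55 in WT CDPs, a 2.98-fold rise (adjusted p = 0.00241), and *Cxcl16* rose 4.69-fold (0.0202). *Ccl5* and *Cxcl3* stayed called without each of the 4 arrays and *Cxcl16* did not (adjusted p from 0.0757 to 0.116). All 17 cholesterol genes had a higher mean in IkL/L CDPs (against 45.3% of all genes). Their median was 0.39 (0.64 without array 2 of WT CDPs), and 3 of them rose (against 1.35% of all genes). The synthesis genes *Idi1* and *Mvd* and the sterol exporter gene *Abcg1* rose 1.89-fold, 1.79-fold and 1.44-fold (adjusted p = 0.0235, 0.0389 and 0.0499). *Idi1* was not called without array 1 of WT CDPs (0.138) or array 2 of IkL/L CDPs (0.171), and *Mvd* without any 1 of the 4 arrays (up to 0.203). *Abcg1* was called only without array 2 of WT CDPs. Of 15 stress and immediate early genes 1 rose (against 1.35% of all genes). It was *Dusp1*, a MAP kinase phosphatase (1.82-fold, adjusted p = 0.0335), and with 1 array left out it was called only without array 2 of WT CDPs.

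For genes of the pathway that GSI blocks, 0 differences between the genotypes passed the test. Among 28 Notch receptors, ligands, cofactors and targets, 2 had an unadjusted p under 0.05 (against 10.5% of all genes). With no overlap between the arrays, 5 were higher and 4 lower in IkL/L CDPs (against 16.7% and 20.6% of all genes). The median log2 difference was -0.03. *Hes1*, a direct Notch target, had 4.13 and 4.12 in IkL/L CDPs with GSI and 4.11 and 4.31 in WT CDPs with GSI (adjusted p = 0.967). Each value lay below the median of its array (4.58 to 4.62), and at such a dim signal a difference may not show. The Notch coactivator gene *Maml2* had 5.78 and 5.47 in IkL/L CDPs and 4.90 and 4.64 in WT CDPs (1.81-fold, adjusted p = 0.105). Of 6 γ-secretase subunit genes 0 passed (0 at an unadjusted p under 0.05). *Ncstn*, which encodes nicastrin, had 8.88 and 8.58 in IkL/L CDPs and 8.60 and 8.54 in WT CDPs, and *Aph1b* had 5.74 and 5.38 in IkL/L CDPs and 5.39 and 4.87 in WT CDPs (adjusted p = 0.842 and 0.492).

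The same genotypes were also compared with vehicle, on 4 arrays that the comparison with GSI does not use. Same-numbered arrays with vehicle and with GSI deviated together, however (r = 0.59 for WT CDPs and 0.66 for IkL/L CDPs). The comparisons are therefore not taken as independent, and how far shared deviations raise their agreement was not tested. With vehicle, 186 genes rose (0.933%) and 49 fell (0.246%) in IkL/L CDPs. Of the 270 genes raised with GSI, 148 were raised with vehicle, which is 54.8% of the 270 and 79.6% of the 186. Of the 158 lowered with GSI, 37 were lowered with vehicle, 23.4% of the 158 and 75.5% of the 49. In sign, 266 of the 270 raised genes and 157 of the 158 lowered genes went the same way with vehicle, against 66.9% of all genes. Their median log2 differences were 1.25 with GSI and 1.03 with vehicle for the raised genes, and -1.12 with GSI and -0.81 with vehicle for the lowered genes, which were chosen by the values with GSI. For the 186 genes raised with vehicle, the median was 1.38 with GSI and 1.43 with vehicle, and 79 of the 186 differed more with GSI. For the 49 genes lowered with vehicle, it was -1.25 with GSI and -0.98 with vehicle, and 29 of the 49 differed more with GSI. Over all genes, 50.3% differed more with GSI. Across all 19938 genes, which are not independent, the genotype differences with GSI and with vehicle correlated at r = 0.84.

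**Figure D3:**
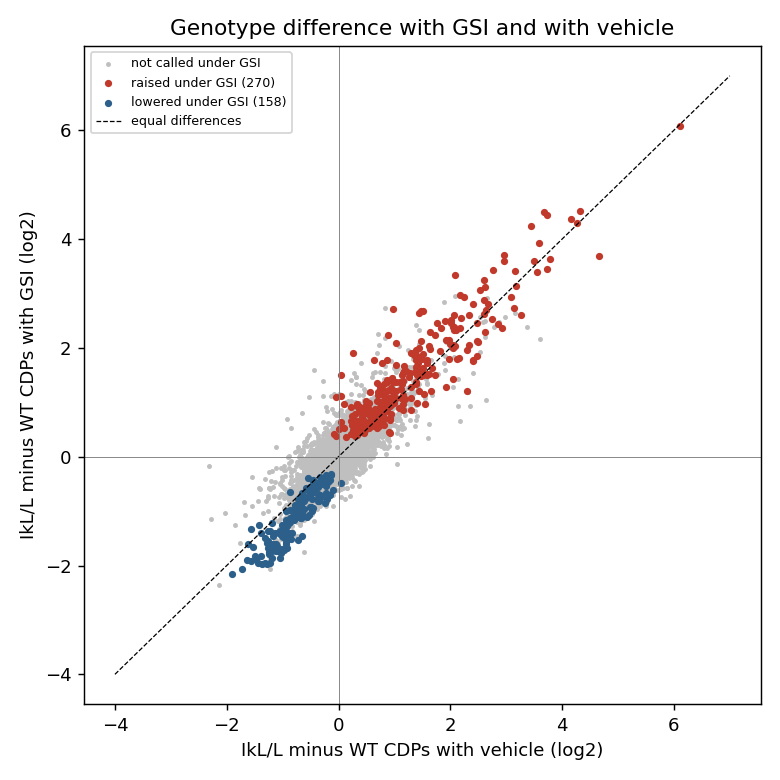
Log2 difference between IkL/L and WT CDPs with vehicle (x axis) and with GSI (y axis) for every gene, with the 270 genes raised with GSI in red, the 158 lowered with GSI in blue and a dashed line at equal differences. The points run along the line, and most of the blue points lie below it.

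When the difference between the treatments was itself tested, 0 genes passed (286 genes, 1.43%, at an unadjusted p under 0.05). The fit did not pair arrays of the same number and had 2 arrays per group. It can thus miss genes, and the count does not show that no genotype difference depended on GSI. With the replicate number as a block the count was also 0. The gene nearest to a call was *Cyp1b1*, a cytochrome P450 induced through the aryl hydrocarbon receptor. With GSI it had 4.81 and 4.56 in IkL/L CDPs and 3.59 and 3.57 in WT CDPs, and with vehicle 3.61 and 3.55 in IkL/L CDPs and 3.49 and 3.58 in WT CDPs. Only the IkL/L arrays with GSI stood above the others. Its genotype difference with GSI exceeded that with vehicle by 1.06 on the log2 scale (95% interval 0.76 to 1.36, not adjusted for the number of genes, adjusted p = 0.244). *Pdcd1lg2* had 5.40 and 6.06 in IkL/L CDPs and 3.86 and 3.77 in WT CDPs with GSI, and 4.06 and 3.85 in IkL/L CDPs and 3.88 and 3.50 in WT CDPs with vehicle (excess 1.65, interval 0.99 to 2.30, adjusted p = 1). The water channel gene *Aqp1* had 5.04 and 5.49 in IkL/L CDPs and 4.22 and 4.13 in WT CDPs with GSI, and between 4.15 and 4.32 on all 4 CDP arrays with vehicle (excess 1.13, adjusted p = 1). *Rnf43* and *Tspan8* had excesses of 0.49 and 0.50 (adjusted p = 1 for both). The count of 0 was 6 without array 1 of IkL/L CDPs with GSI.

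In the mitosis list, 28 of 29 genes had a larger fall with GSI than with vehicle. Over all genes, 50.3% had a larger difference with GSI, and of the 158 genes called lowered by the values with GSI, 94.9% did. The median excess of the list was -0.54, and 3 genes had an unadjusted p under 0.05 (against 1.43% of all genes). The mean level of these genes was 6.93 and 7.22 in IkL/L CDPs and 8.58 and 8.65 in WT CDPs with GSI, and 7.08 and 7.40 in IkL/L CDPs and 8.01 and 8.54 in WT CDPs with vehicle. The genotypes did not overlap with either treatment. In the mature DC list, 25 of 33 genes had a larger difference with GSI (against 50.3% of all genes and 73.3% of the 270 raised genes). The median excess was 0.22, and 3 genes had an unadjusted p under 0.05. The 9 MHC class II genes all had a smaller difference with GSI, with a median excess of -0.40 (0 at an unadjusted p under 0.05). For *Ccl22* the interval of the excess was -0.23 to 1.65, and for *Bub1* it was -1.42 to 0.04, and both intervals held 0.

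**Figure D4:**
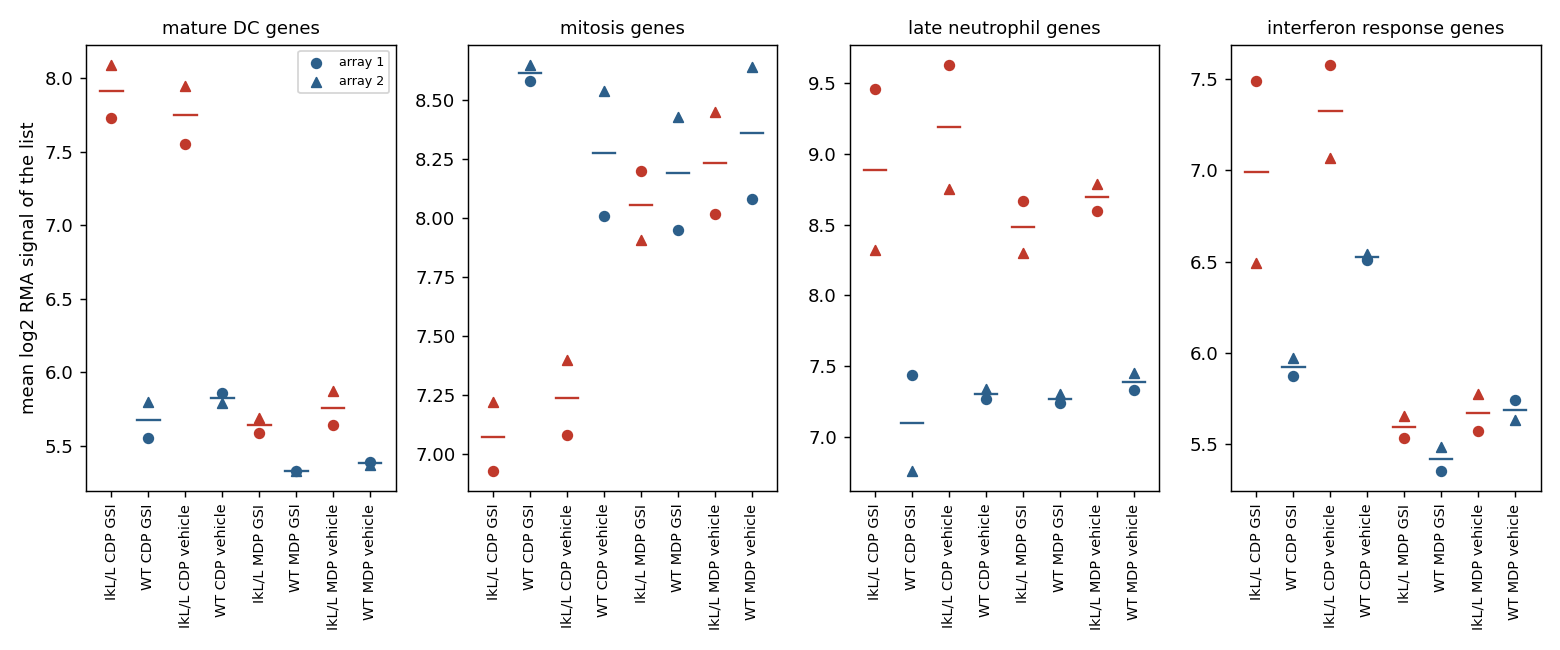
Mean log2 RMA signal of 4 gene lists (y axis) in each array of the 8 groups (x axis), IkL/L in red and WT in blue, circles for array 1 and triangles for array 2, with bars at group means. The mature DC genes are high in both IkL/L CDP groups only, at 7.73 and 8.09 with GSI, and the mitosis genes are lowest in the IkL/L CDP groups, at 6.93 and 7.22 with GSI.

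The same genotypes with GSI in MDPs, on 4 further arrays, gave 22 raised genes (0.11%) and 1 lowered gene (0.00502%). Of the 270 genes raised in CDPs, 14 were raised in MDPs (5.19% of the 270 and 63.6% of the 22), and the median difference of the 270 genes was 0.32 in MDPs. In sign, 223 of the 270 and 136 of the 158 lowered genes went the same way in MDPs (12204 of all 19938 genes did). Over 1.5-fold the same way in MDPs were 78 of the 270 and 5 of the 158 (518 of all genes). Across all genes the genotype differences in CDPs and MDPs with GSI correlated at r = 0.51. The granule gene *Camp* rose in both, with a log2 difference of 3.45 in CDPs and 4.23 in MDPs. *Ltf* had 3.69 in CDPs and 3.43 in MDPs, where it missed the threshold (adjusted p = 0.0559). In a test of CDPs against MDPs, 46 genes (0.231%) had unequal genotype differences, higher in CDPs for 41 (0.206%) and lower for 5 (0.0251%), with 921 (4.62%) at an unadjusted p under 0.05.

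The list of 33 mature DC genes held 10 of the 41. *Ramp3* had 3.84 and 4.14 in IkL/L MDPs and 4.0 and 4.02 in WT MDPs with GSI, a log2 difference of -0.02, against 4.24 in CDPs (adjusted p = 0.00227 for the difference between them). *Ccl22* had 4.70 and 5.12 in IkL/L MDPs and 4.91 and 4.53 in WT MDPs with GSI, a difference of 0.18, against 4.44 in CDPs (adjusted p = 0.00387). In both genes the MDP arrays of the genotypes overlapped. The 5 genes on the other side were *Bub1b* of the mitosis list, *Kif18a*, *Cenpa*, the centromere's own histone, *Arhgap19*, which switches off the GTPase RhoA, and *H2-Ab1*, an MHC class II chain. *Kif18a* had 5.74 and 5.64 in IkL/L MDPs and 6.05 and 6.03 in WT MDPs with GSI, a difference of -0.35, against -1.96 in CDPs (adjusted p = 0.013). *H2-Ab1* had 10.24 and 10.61 in IkL/L MDPs and 5.55 and 6.90 in WT MDPs, against 12.18 and 12.17 in IkL/L CDPs and 11.25 and 11.76 in WT CDPs, all with GSI. Its genotype difference was 0.67 in CDPs and 4.20 in MDPs (adjusted p = 0.0276). The count of 46 moved with single arrays. It was 10 and 94 with array 1 or 2 of WT MDPs with GSI left out, 6 and 8 without those of IkL/L MDPs with GSI, 9 and 24 without those of WT CDPs with GSI, 24 without array 2 of IkL/L CDPs with GSI and 27 without either array of WT MDPs with vehicle.

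**Figure D5:**
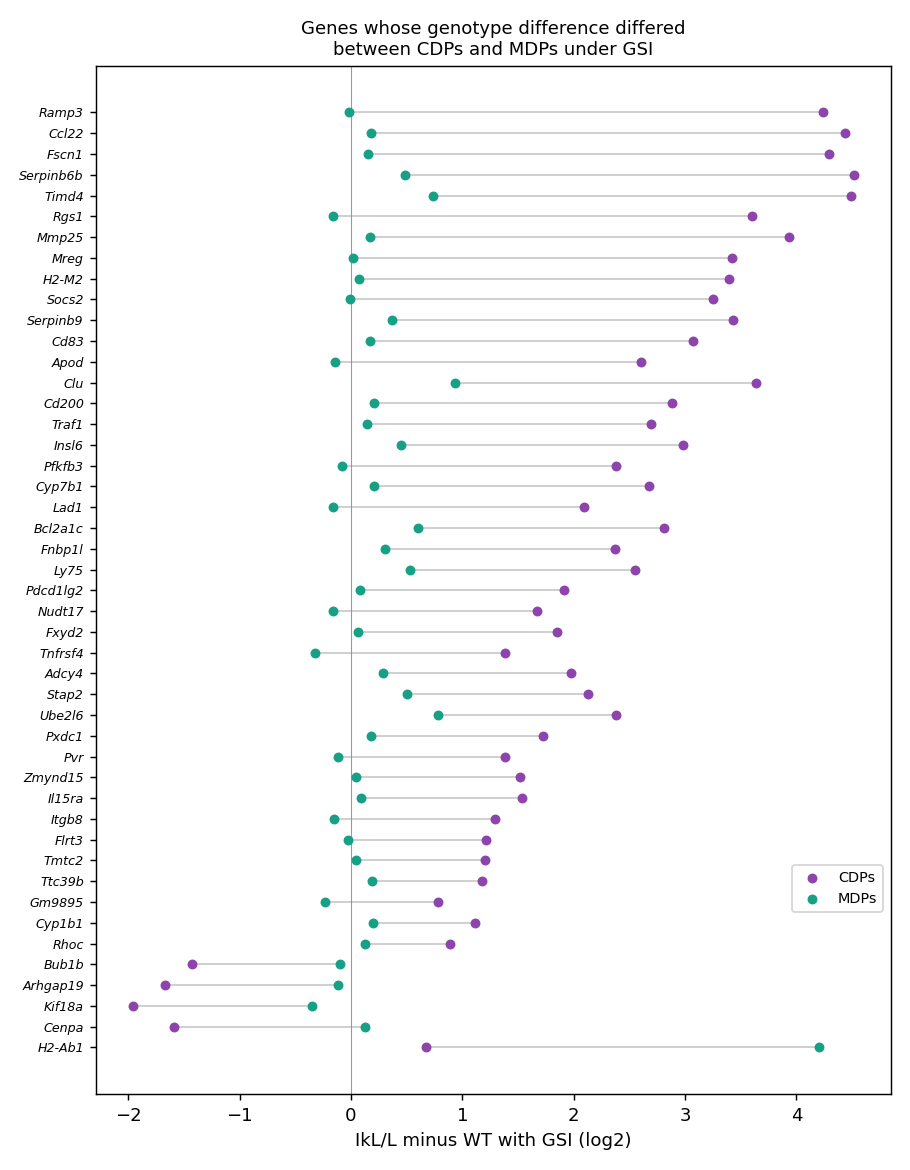
Log2 difference between IkL/L and WT with GSI (x axis) in CDPs (purple) and MDPs (green) for the 46 genes (y axis) whose difference passed the test between the stages, ordered by the CDP minus MDP value. *Ramp3* lies at 4.24 in CDPs and -0.02 in MDPs, and *H2-Ab1* at 0.67 in CDPs and 4.20 in MDPs.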

How the data were processed

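The authors made the deposited values by RMA, which normalizes between arrays, using Affymetrix Expression Console 1.4.1 on Gene ST arrays, as log2 signals, with 2 arrays per group. The annotation version and genome build are not given in the sources used here. Of 28188 probe sets, 21789 carry 1 symbol, and the brightest one per symbol over all arrays was kept (19938 genes, no filter on signal). With limma 3.58.1 in R 4.3.3, 1 fit of 8 group means to 16 arrays gave two-sided moderated tests, with Benjamini-Hochberg adjustment over all genes and a threshold of 0.05. Standard errors and intervals come from this fit (8 residual and 2.35 prior degrees of freedom). The labels name no shared mouse for arrays of the same number, and p values measure only the spread between these arrays. With 2 against 2, the smallest p of an exact permutation test is 0.333. The members and gene lists were chosen with earlier results of these data known, so no list was tested. Of 543 genes in 25 lists, 505 were measured, and some lists share genes. Named were the 15 largest rises and falls without overlap, genes the study names, up to 4 called members (otherwise up to 2) of each list and the 5 smallest p values of each interaction. Other genes were named after their values were seen. Promoter sequences are from RefSeq (GRCm38.p6), matched by gene ID for 15563 genes. Alternatives were other sets of arrays, a replicate block, a filter on dim genes, another variance prior, the mean of probe sets, quantile normalization, limma's treat against 1.5-fold, and each array left out. The fit was tested on simulated data.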

Additional observations from a re-analysis of the deposited data

Results flagged for a closer look

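The genotype difference with GSI differed between CDPs and MDPs by a test of that difference for 41 genes higher and 5 lower in CDPs, and 18 of the genes named by rule were among them. In CDPs the difference was higher, on the log2 scale, by 4.27 for *Ramp3*, 4.26 for *Ccl22*, 4.15 for *Fscn1*, 4.03 for *Serpinb6b*, 3.76 for *Timd4* and *Rgs1*, 3.75 for *Mmp25* and 3.07 for *Serpinb9*. It was higher by 2.74 for *Apod*, 2.71 for *Clu*, 2.54 for *Traf1*, 2.21 for *Bcl2a1c*, 2.02 for *Ly75*, 1.83 for *Pdcd1lg2*, 1.5 for *Pvr*, 1.44 for *Itgb8* and 0.90 for *Cyp1b1*. For *Kif18a* the CDP minus MDP value was -1.61. Groups of 2 arrays are too small to look for single outlying arrays.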

How the results depend on the processing

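The direction of each called gene named by rule held under every alternative run. Fitted to the 8 CDP arrays, limma called 92 genes raised and 62 lowered, and fitted to the 4 compared arrays it called 0 and 0. In the fit of 8 CDP arrays 33 of the genes named by rule were no longer called, among them *Prr11* (adjusted p = 0.0577), *Hmmr* (0.0777), *Cd40* (0.0591) and *Oasl2* (0.0801). Tested against a fold of 1.5 with treat, 66 rose and 13 fell. With the replicate number as a block, 355 rose, 271 fell and 76 differed between CDPs and MDPs, with 269 of the 270 and all 158 main calls shared. Same-numbered arrays deviated together unevenly (r from -0.25 to 0.66 over 28 pairs of groups, 17 over 0.1). The 6 pairs among the 4 CDP groups were all over 0.1 (0.35 to 0.66, and 0.57 for the compared groups) and all negative values involve an MDP group. As no label gives the numbers a meaning and not every pair was over 0.1, the block was kept as an alternative. The mean level of the sex-linked list was 6.41 to 6.86 in every WT array 1 and 5.02 to 5.21 in every WT array 2. In IkL/L arrays it was 5.82 to 6.19 and 5.09 to 6.58. Whether same-numbered arrays share a source was not tested, and the main fit treats all arrays as independent. With a trended and robust prior, 1 gene differed between GSI and vehicle, against 0. With a filter on dim genes, this prior, the mean of probe sets or quantile normalization, 210 to 288 genes rose and 147 to 192 fell. With each array left out in turn, 130 to 276 genes rose, 33 to 190 fell, 0 to 6 differed between GSI and vehicle (6 without array 1 of IkL/L CDPs with GSI), 6 to 94 differed between CDPs and MDPs, and 527 to 735 were over 1.5-fold lower, against 451. The 5 genes that changed sign were not called: leaving out 1 compared array gave -0.18 to 0.02 for *Hes1*, -0.25 to 0.04 for *Id2*, -0.28 to 0.62 for *Tcf4*, -0.20 to 0.68 for *Irf4* and -0.36 to 3.32 for *Eif2s3y*. The causes of these changes were not tested. How far dim signals limit the fold changes was not tested, since the deposited values hold no background level.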

Other observations

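Some genes with a larger genotype difference in CDPs than in MDPs under GSI lie outside the lists described above and were chosen after their values were seen. *Il15ra*, the receptor chain that presents IL-15 to lymphocytes, had 7.12 and 7.47 in IkL/L CDPs and 5.93 and 5.59 in WT CDPs, against 6.31 and 6.29 in IkL/L MDPs and 6.44 and 5.98 in WT MDPs (adjusted p = 0.0442 from limma for CDPs against MDPs). *Pfkfb3*, which speeds up glycolysis, had 8.60 and 8.98 in IkL/L CDPs and 6.32 and 6.49 in WT CDPs, against 6.22 and 5.88 in IkL/L MDPs and 6.33 and 5.93 in WT MDPs (adjusted p = 0.0348). *Cyp7b1*, which hydroxylates oxysterols, had 6.23 and 6.98 in IkL/L CDPs and 3.78 and 4.07 in WT CDPs, against 3.68 and 3.83 in IkL/L MDPs and 3.54 in both arrays of WT MDPs (adjusted p = 0.0119). In all 3 genes the genotypes stood apart in CDPs, and all MDP arrays with GSI lay below both IkL/L CDP arrays.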
